A study of Homo sapiens with 148 samples.

Results

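Exocrine and ductal pancreas genes were followed by RNA-seq through the in vitro differentiation of H9 cells, an established human embryonic stem cell (hESC) line, toward pancreatic islet organoids. The genes were chosen by name. They are the acinar enzyme genes CPA1, PRSS1, CTRB1, CELA3A, CEL and PNLIP, the trypsin inhibitor gene SPINK1, and the ductal and epithelial genes CFTR and MUC1. Of these 9 names, 8 are used here, out of 49085 gene names in all, and PNLIP is not used here. The stages were undifferentiated hESCs, definitive endoderm (DE, day 4), primitive gut tube-like cells (PGT, day 7), pancreatic progenitors (PP, day 14), a stage labelled PH that neither the labels nor the study's methods define, and the organoids of day 35, meant to hold beta cells (SC-β organoids). Cells of every stage carry the wild-type genotype label and descend from the same H9 line. The spheroids received activin A, CHIR99021 and Y27632 at the outset and then KGF. Retinoic acid, Sant1, LDN193189 and PdBU followed, and γ-secretase inhibitor XXI, betacellulin, Alk5 inhibitor II and T3 came last. The 12 RNA-seq samples, 2 per stage, are available as a single mean per stage, in TPM, a read measure corrected for transcript length and brought to the same total in every stage. Every value below is therefore the authors' mean, with no spread between replicates, and no difference between stages was tested.

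The pancreas holds endocrine islets within a much larger exocrine gland. Acinar cells make digestive enzymes, many of them as inactive zymogens, together with a small inhibitor, the product of SPINK1, which blocks trypsin that becomes active too early. Duct cells carry the secretion away and add bicarbonate and fluid, for which the chloride and bicarbonate channel encoded by CFTR is needed, and MUC1 encodes a mucin anchored in the apical membrane of duct and other epithelial cells. Acinar, ductal and endocrine cells all descend from the multipotent progenitors that the PP stage is meant to represent.

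The stretches just upstream of the transcription start are shown for SPINK1, the gene with the widest log2 difference between stages, and for 4 acinar enzyme genes, since acinar promoters are known for the E-box bound by PTF1A, a basic helix-loop-helix factor of acinar cells. PRSS2, the close copy of PRSS1, stands beside it for comparison. Of the 8 genes used, 7 had an entry in the RefSeq promoters (GRCh38.p14), and CTRB1 had none. Each sequence is the 120 bases before the start, 5′ to 3′ on the strand of the gene. They are chr5:147831672-147831791 (reverse strand) for SPINK1, chr7:130380374-130380493 for CPA1, chr7:142749352-142749471 for PRSS1, chr7:142770850-142770969 for PRSS2, chr1:22001537-22001656 for CELA3A and chr9:133061861-133061980 for CEL, the last 5 on the forward strand. The starts are those of the RefSeq entries, and the stretches of CPA1 and PRSS2 lie inside their gene intervals in GENCODE version 44, used below. Capitals mark CACCTG or its reverse complement CAGGTG, and TATAAA.
SPINK1: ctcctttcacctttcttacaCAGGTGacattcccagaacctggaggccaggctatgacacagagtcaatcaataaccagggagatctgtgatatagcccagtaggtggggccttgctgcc
CPA1: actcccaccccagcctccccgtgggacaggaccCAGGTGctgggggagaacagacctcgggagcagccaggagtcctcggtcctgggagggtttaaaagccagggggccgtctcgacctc
PRSS1: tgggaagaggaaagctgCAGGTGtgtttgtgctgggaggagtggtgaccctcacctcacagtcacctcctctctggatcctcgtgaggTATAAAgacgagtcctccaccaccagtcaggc
PRSS2: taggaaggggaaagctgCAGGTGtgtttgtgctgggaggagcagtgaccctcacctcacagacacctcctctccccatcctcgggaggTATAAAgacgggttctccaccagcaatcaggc
CELA3A: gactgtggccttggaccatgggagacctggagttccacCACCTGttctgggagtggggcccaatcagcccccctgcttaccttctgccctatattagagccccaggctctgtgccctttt
CEL: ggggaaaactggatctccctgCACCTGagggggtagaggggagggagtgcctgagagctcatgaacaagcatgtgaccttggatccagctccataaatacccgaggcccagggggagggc

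In these windows the E-box starts 100 bases before the start of SPINK1, 87 before that of CPA1, 103 before that of PRSS1, 82 before that of CELA3A and 99 before that of CEL. Both strands were searched over the 250 bases before the start. Of the 7 used genes with an entry, 6 held at least 1 CACCTG, whereas 17.5% of all 35116 RefSeq promoters did. PNLIP, the acinar enzyme gene not used here, also had an entry and held no CACCTG. SPINK1, CELA3A and CEL each held 3 matches. MUC1 held CACCTG as well, starting 82 and 75 bases before its start, together with 4 GC boxes (GGGCGG, in 42.6% of all promoters), of which some overlap. CFTR held no CACCTG, which says only that these letters are not in this window. TTTCCC, searched in the same way and found in 23.3% of all promoters, was present in SPINK1, CEL and CFTR. It was absent from CPA1, PRSS1, CELA3A and MUC1, which all held the E-box. TATAAA, found in 10.7% of all promoters, was present in PRSS1, 32 bases before the start, and in MUC1. The 120-base stretches of PRSS1 and PRSS2 were identical at 107 positions. A match of letters does not show that a factor binds there, and the stage values below differ widely among genes that share the E-box.

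SPINK1 was by far the most abundant of the genes from the PP stage on. It lies on the reverse strand of chromosome 5 (ENSG00000164266.11, 147824572 to 147831671, GENCODE version 44 on GRCh38). Its mean level was 0.557 TPM in hESCs, 0.174 TPM in DE, 1.10 TPM in PGT, 84.9 TPM in PP, 75.6 TPM in PH and 119.9 TPM in SC-β organoids. The first 3 stages were near or below 1 TPM and the other three were all above 75 TPM, with no value in between. On a scale of log2(TPM + 1), the difference from hESCs was 5.79 in PP, 5.62 in PH and 6.28 in SC-β organoids, and the ratio of TPM from PGT to PP was 77.2. PP, PH and SC-β organoids stood within 2-fold of each other. SPINK1 went from rank 19102 of the 49085 names in PGT to rank 920 in PP and rank 656 in SC-β organoids. No 50-base stretch of its main transcript occurred in a transcript of another gene.

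From PP on each of the 5 acinar enzyme genes was below SPINK1 at every stage, and their courses differed. PRSS1, which encodes cationic trypsinogen, lies on the forward strand of chromosome 7 (ENSG00000204983.15, 142749468 to 142753072). Its level was 0.687 TPM in hESCs, 3.86 TPM in DE, 8.61 TPM in PGT, 4.08 TPM in PP, 7.18 TPM in PH and 19.2 TPM in SC-β organoids. It was thus above its hESC level from DE onward, was lower in PP than in PGT (log2 ratio -0.92, under 2-fold on that scale), and was highest in the organoids, 3.58 above hESCs on the log2(TPM + 1) scale. PRSS2, the gene for anionic trypsinogen on the same chromosome, had its stages in the same order, with 35.1 TPM in SC-β organoids, 13.6 TPM in PGT and 8.68 TPM in PH, and was at 2.69 TPM in hESCs. PRSS3, the mesotrypsinogen gene on chromosome 9, did not exceed 0.865 TPM. The transcripts of PRSS1 and PRSS2 share few exact 50-base stretches: 3.42% of those of PRSS1 and 10.5% of those of PRSS2 occur in another gene, so most of each transcript is distinct from its copy at that length.

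CPA1 encodes carboxypeptidase A1 (chromosome 7, ENSG00000091704.10, 130380339 to 130388114, forward strand). It was at 0.0227 TPM in hESCs, listed at 0 in DE, and at 0.0404 TPM in PGT. It reached 1.64 TPM in PP and 1.87 TPM in PH and was at 0.602 TPM in SC-β organoids. CPA1 therefore appeared at the same stage as SPINK1 but, unlike SPINK1, was lower in the organoids than in PP, by 0.72 on the log2(TPM + 1) scale, which is under 2-fold there, while the ratio of TPM was 2.72. None of its 50-base stretches is shared.

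CEL, the gene for bile salt-stimulated lipase (chromosome 9, ENSG00000170835.17, 133061981 to 133071861, forward strand), varied least among the members that passed 1 TPM. It was at 0.859 TPM in hESCs, 0.866 TPM in DE, 1.70 TPM in PGT, 2.29 TPM in PP, 1.82 TPM in PH and 2.46 TPM in SC-β organoids. Each neighbouring pair in this order differed by less than 2-fold. Part of its transcript is repeated elsewhere. Of its 50-base stretches 25.0% also occur in the pseudogene CELP or in an unnamed gene, and CELP was itself below 1 TPM at every stage.

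CTRB1 (chymotrypsinogen B1, chromosome 16, ENSG00000168925.12, 75218988 to 75226338, forward strand) and CELA3A (a chymotrypsin-like elastase, chromosome 1, ENSG00000142789.20, 22001657 to 22012542, forward strand) stayed below 1 TPM at every stage. CTRB1 was listed at 0 in hESCs and was at 0.307 TPM in DE, 0.157 TPM in PGT, 0.120 TPM in PP, 0.186 TPM in PH and 0.263 TPM in SC-β organoids, a spread with no separation of late from early stages. CELA3A was at 0.00622 TPM in hESCs, 0.00810 TPM in DE, 0.273 TPM in PP and 0.151 TPM in PH, and was listed at 0 in PGT and in SC-β organoids. Both have a near-identical neighbour. CTRB1 shares 64.8% of its 50-base stretches with CTRB2, and CELA3A shares 67.1% with a non-coding transcript that runs across it and CELA3B, or with CELA3B itself, so reads can be split between copies and these values are uncertain. CTRB2 was highest in PH, at 0.894 TPM, and CELA3B in PP, at 0.353 TPM. At such levels, and without read counts, no order of the stages can be read.

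**Figure D1:**
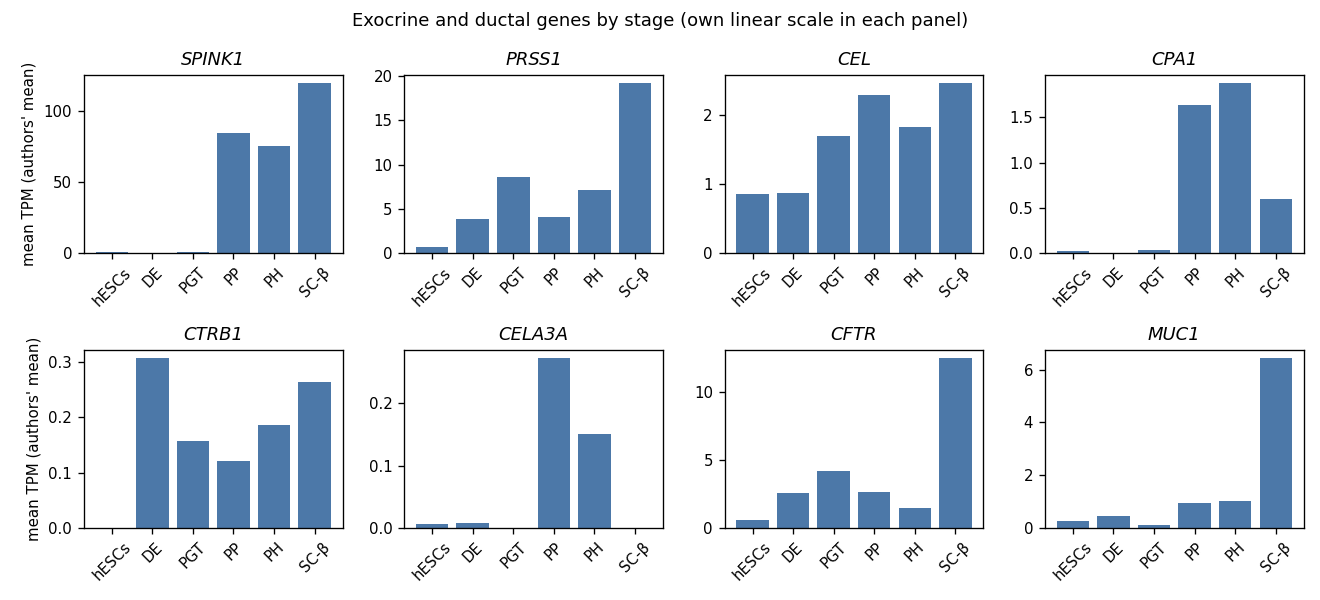
Bars give the authors' mean TPM of each gene in hESCs, DE, PGT, PP, PH and SC-β organoids, on a linear axis from 0 that differs between panels, with no error bars because single replicates are not part of the data. SPINK1 stands at 84.9 TPM in PP against 1.10 TPM in PGT, CPA1 is highest in PH, CTRB1 and CELA3A stay below 1 TPM, and PRSS1, CFTR and MUC1 are highest in SC-β organoids.

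SPINK1 was below PRSS1 and PRSS2 in PGT and above both in PP. TPM is scaled by length, so levels of different genes can be set side by side. SPINK1 was at 0.128 times the level of PRSS1 in PGT and at 20.8 times its level in PP, 10.5 times in PH and 6.25 times in SC-β organoids. PRSS2 was above PRSS1 at every stage, and against the sum of both SPINK1 was at 0.0496 times in PGT, 9.25 times in PP, 4.77 times in PH and 2.21 times in SC-β organoids. The 5 acinar enzyme genes, which leave out PRSS2, together summed to 1.57 TPM in hESCs, 5.04 TPM in DE, 10.5 TPM in PGT, 8.40 TPM in PP, 11.2 TPM in PH and 22.5 TPM in SC-β organoids, and PRSS1 alone made up 85.2% of the last sum. SPINK1 exceeded this sum 10.1-fold in PP and 5.33-fold in SC-β organoids. In the organoids the islet hormone genes stood well above all of them, with INS, for insulin, at 298 TPM and GCG, for glucagon, at 2793 TPM, whereas in PP SPINK1 was above both, INS being at 6.93 TPM and GCG at 16.5 TPM.

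CFTR and MUC1, like PRSS1, were at least 2-fold higher in SC-β organoids than in PP. CFTR lies on the forward strand of chromosome 7 (ENSG00000001626.18, 117287120 to 117715971). It was at 0.572 TPM in hESCs, 2.57 TPM in DE, 4.23 TPM in PGT, 2.67 TPM in PP, 1.49 TPM in PH and 12.5 TPM in SC-β organoids. Its level in the organoids was 4.68 times that in PP and 2.96 times that in PGT, the next highest stage, and the stages from PGT down to PH followed each other in steps of less than 2-fold. The annotated gene overlaps CTTNBP2 and WNT2 on the opposite strand, and CTTNBP2 was also highest in SC-β organoids, at 30.3 TPM. Whether the authors' counting used strand is not given in the sources used here, so reads of the overlapped ends cannot be told apart by gene.

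MUC1 lies on the reverse strand of chromosome 1 (ENSG00000185499.17, 155185824 to 155192916). It was at 0.254 TPM in hESCs, 0.443 TPM in DE, 0.109 TPM in PGT, 0.929 TPM in PP, 1.02 TPM in PH and 6.43 TPM in SC-β organoids. Only the organoids were clearly above 1 TPM, at 6.92 times the PP level and 2.57 above hESCs on the log2(TPM + 1) scale. Where CFTR was higher in PGT than in DE, MUC1 was lower, so that CFTR exceeded MUC1 38.6-fold in PGT and 1.94-fold in SC-β organoids. The annotated MUC1 gene overlaps an unnamed protein-coding gene on the same strand, for which no value is available here. No 50-base stretch of the main MUC1 transcript occurred in a transcript of another gene.

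Counted against hESCs on the log2(TPM + 1) scale, 2 of the 8 genes were at least 2-fold higher in DE and in PGT (PRSS1 and CFTR), beside 12.9% of all names in DE and 10.1% in PGT. In PP, 4 of the 8 were (CPA1, PRSS1, SPINK1 and CFTR), beside 7.98% of all names. In PH, 3 of the 8 were (CPA1, PRSS1 and SPINK1), beside 12.1%, and in SC-β organoids 4 of the 8 were (PRSS1, SPINK1, CFTR and MUC1), beside 22.2%. At every later stage 0 of the 8 were at least 2-fold below hESCs, beside 2.55% of all names in DE, 4.34% in PGT, 4.06% in PP, 8.35% in PH and 3.70% in SC-β organoids. All 8 were below 1 TPM in hESCs, so with 1 TPM added none could be counted as lower, and this count carries no information. Between PGT and DE 0 of the 8 were higher, beside 2.30% of all names, and 0 were lower, beside 4.92%. Against PGT, 2 genes were at least 2-fold higher in PP (CPA1 and SPINK1), beside 2.74% of all names, and 0 were lower, beside 3.25%. Against PP, 3 were higher in SC-β organoids (PRSS1, CFTR and MUC1), beside 10.6%, and 0 were in PH, beside 5.14%. Lower than PP were 0 of the 8 in PH, beside 5.73%, and 0 in SC-β organoids, beside 0.939%. The median log2 ratio of the 8 genes to hESCs was 0.10 in DE, 0.32 in PGT, 1.02 in PP, 0.68 in PH and 1.73 in SC-β organoids. Over all names it was 0.12, 0.04, 0.04, 0 and 0.23, and over the 28202 names that reached 1 TPM in some stage it was 0.44, 0.29, 0.24, 0.15 and 0.73.

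In hESCs 0 of the 8 genes were at 1 TPM or more, where 34.2% of all names were. The count was 2 in DE, beside 44.0%, 4 in PGT, beside 40.1%, 5 in PP, beside 39.2%, 6 in PH, beside 39.8%, and 5 in SC-β organoids, beside 50.1%. The highest stage was SC-β organoids for 5 of the 8 genes, and it was so for 36.6% of all names. It was DE for CTRB1, beside 20.2% of all names, PP for CELA3A, as for 3438 of the 49085 names, and PH for CPA1, beside 13.7%, and for CTRB1 and CELA3A, below 1 TPM throughout, no order of the stages can be read from it.

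Other acinar genes were read from a list of 31 enzymes and secreted proteins, 28 of which are used here. In SC-β organoids 8 of the 28 were at 1 TPM or more, and 18 stayed below 1 TPM at every stage. Of all names 50.1% reached 1 TPM there, and 28202 of the 49085 names did so at some stage. Set against hESCs, 7 of the 28 were at least 2-fold higher at this stage, beside 22.2% of all names, and 0 lower, with a median log2 ratio of 0.36, and in PP 4 were higher, beside 7.98%, and 2 lower, with a median of 0. The 4 most abundant were RNASE1, a secreted ribonuclease also made by endothelial cells, at 57.9 TPM in SC-β organoids and 17.0 TPM in hESCs, PRSS2, ERP27, an endoplasmic reticulum protein, at 19.4 TPM in PP and 12.8 TPM in PGT, and REG1A, a secreted lectin-like protein, at 12.1 TPM in SC-β organoids and 0.0821 TPM in PP. CLPS, for the colipase that pancreatic lipase requires, was named after its values were seen. It was at 2.33 TPM in PH, at 0.113 TPM in SC-β organoids and listed at 0 in the remaining stages.

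The transcription factors of the acinar program did not move as a group. PTF1A was listed at 0 in hESCs, DE and PGT, and was at 1.02 TPM in PP, 7.61 TPM in PH and 0.0229 TPM in SC-β organoids. RBPJL, its partner in mature acinar cells, did not reach 1 TPM at any stage. GATA4 was highest in DE, at 47.5 TPM, and was at 10.2 TPM in PP against 2.53 TPM in the organoids, NR5A2 was highest in hESCs, at 10.1 TPM, and XBP1, which drives secretory capacity in many cell types, was highest in PGT, at 129 TPM. Of the 7 factors used, 3 were at least 2-fold above hESCs in PP, beside 7.98% of all names, and 1 was below, with a median log2 ratio of -0.10. PTF1A is also a factor of the dorsal spinal cord and cerebellum. A list of 10 neural progenitor genes, drawn up after the values were seen, summed to 520.0 TPM in PH. Its sum was 56.3 TPM in PP and 94.3 TPM at the organoid stage. All 10 were highest in PH, beside 13.7% of all names, and at 1 TPM or more there, beside 39.8%. The choice of the list after the values can have fixed these counts, which are therefore no support. HES5, PAX3, LHX1 and SKOR1, its most abundant genes, were at 109.8, 97.3, 92.1 and 57.1 TPM in PH. Whether neural cells were present, and their part in the PTF1A value, was not tested.

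**Figure D2:**
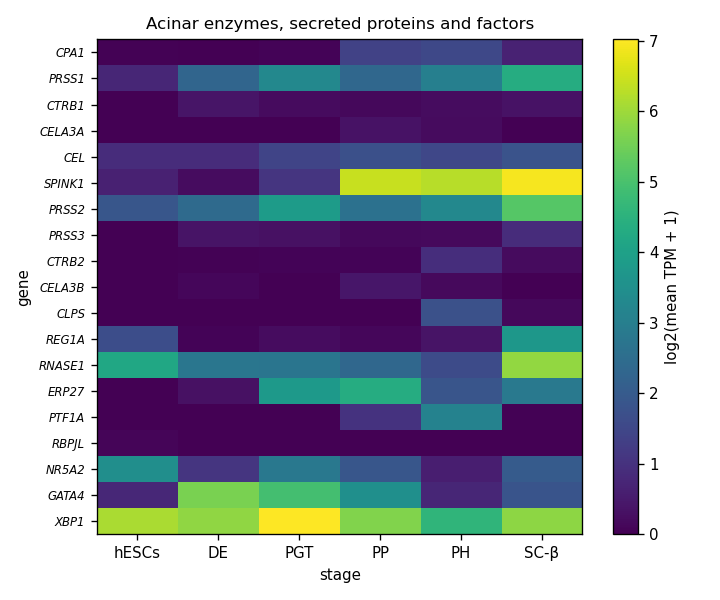
Rows are the 5 acinar enzyme genes, SPINK1 and the other acinar genes and factors named in the text, columns are the 6 stages, and colour gives log2(mean TPM + 1). CTRB1 and CELA3A, below 1 TPM at every stage, are dark throughout, SPINK1 is bright from PP on, and PTF1A has its highest value, 7.61 TPM, in PH.

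Of the 29 other ductal and ductal-progenitor genes, 19 exceeded hESCs at least 2-fold in SC-β organoids, beside 22.2% of all names, and 1 was below, with a median log2 ratio of 1.30. In PP 13 were above, beside 7.98% of all names, and 2 below, with a median of 0.72. Between PP and SC-β organoids, the step in which CFTR and MUC1 differed, 10 of the 29 were at least 2-fold higher, beside 10.6% of all names, and 2 lower (median 0.43). KRT19, a keratin of ducts and other simple epithelia, was highest in PGT, at 1064 TPM, and was at 170.5 TPM in PP, 90.0 TPM in PH and 230.6 TPM in the organoids. KRT19 was at 125.6 TPM already in hESCs. SPP1, for osteopontin, was at 837 TPM in hESCs, 0.446 TPM in DE, 73.4 TPM in PP, 4.74 TPM in PH and 96.1 TPM at the last stage. CLDN4, a tight junction claudin, was highest in PP, at 72.1 TPM, and PROM1 in PGT, at 133 TPM. SOX9, a factor of progenitors and ducts, was at 5.90 TPM in PGT, 23.7 TPM in PP, 27.2 TPM in PH and 25.2 TPM in SC-β organoids. In PH, 11 of the 29 genes were at least 2-fold below PP, beside 5.73% of all names, and 0 were above.

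Among 14 other mucins, 10 were highest in SC-β organoids, as MUC1 was, beside 36.6% of all names. Of the 14, however, 8 stayed below 1 TPM at every stage. Some of these are in that count, and for them no order of the stages can be read. MUC16 was at 41.6 TPM and MUC13 at 20.5 TPM in SC-β organoids, and neither exceeded 0.715 TPM at an earlier stage or in PH. MUC20 was at 4.10 TPM in SC-β organoids. MUC12 was highest in hESCs instead, at 7.20 TPM. In SC-β organoids 4 of the 14 were at least 2-fold above PP, beside 10.6% of all names, and 0 below, with a median log2 ratio of 0.54. Of 9 other genes with the SPINK name, 0 exceeded hESCs at least 2-fold in PP, beside 7.98% of all names, and 3 did so at the organoid stage, beside 22.2%, and the most abundant, SPINK5, an inhibitor of skin proteases, was lowest in hESCs, at 7.40 TPM, and highest in DE, at 17.5 TPM. SPINK2, SPINK9 and SPINK7, the next most abundant, did not exceed 1.71, 1.46 and 1.33 TPM.

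**Figure D3:**
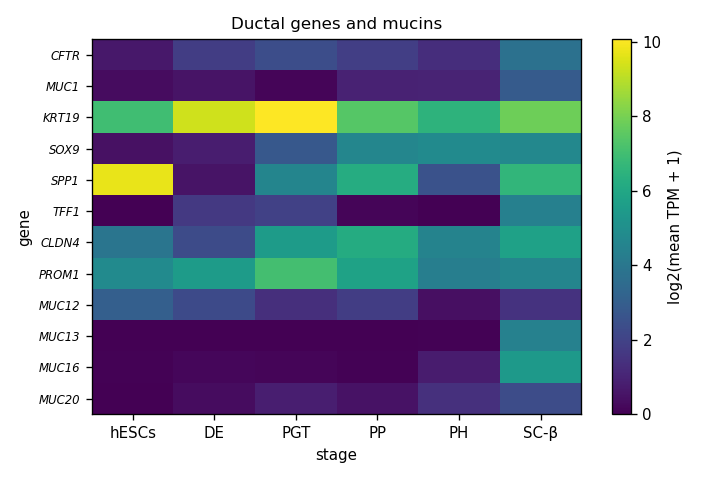
Rows are CFTR, MUC1 and the other ductal genes and mucins named in the text, columns are the 6 stages, and colour gives log2(mean TPM + 1). KRT19 and SPP1 are bright already in hESCs, at 125.6 and 837 TPM, and the rows of MUC1, MUC13 and MUC16 are brightest in SC-β organoids.

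SPINK1, CFTR and MUC1 are also made by epithelia other than the pancreas, so markers of those were read beside them. In bulk RNA, fewer cells of a type and less RNA per cell cannot be told apart. The 10 simple epithelial genes summed to 1379 TPM in hESCs, 2300.3 TPM in DE and 1975 TPM in PGT. Their sum was 909 TPM in PP, 152 TPM in PH and 606 TPM in SC-β organoids, with KRT8, KRT18, EPCAM and CDH1 the most abundant. All 10 were at 1 TPM or more at every stage, beside 34.2% (hESCs) to 50.1% (SC-β organoids) of all names. From PP to PH 9 of the 10 were at least 2-fold lower, beside 5.73% of all names, with a median log2 ratio of -2.39. SPINK1 had a ratio of -0.17 over the same pair of stages, CFTR one of -0.56 and MUC1 one of 0.07. In PP, however, CFTR was at 2.67 TPM and MUC1 at 0.929 TPM. With 1 TPM added, neither could have reached the epithelial median, so their ratios cannot be set against it.

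Stomach markers, 8 of which are used here, summed to 4.30 TPM in PGT, 40.4 TPM in PP, 4.33 TPM in PH and 64.9 TPM in SC-β organoids. CLDN18, the claudin of gastric epithelium, was at 25.6 TPM in PP against 18.4 TPM in the organoids, and GIF, for intrinsic factor, at 9.27 and 13.2 TPM, while TFF1, which the ductal list also holds, at 19.9 TPM, and PGC, for pepsinogen C, at 8.18 TPM, were highest in SC-β organoids. Of 9 intestinal markers, 5 were at 1 TPM or more in PP, beside 39.2% of all names. At the organoid stage 8 were, beside 50.1%. The list summed to 134 TPM in PGT, 42.6 TPM in PP, 6.06 TPM in PH and 56.3 TPM in SC-β organoids. CDH17, an intestinal cadherin, was at 3.74 TPM in PP against 12.6 TPM in the organoids. VIL1, for the microvillus protein villin, was highest in PGT, at 125 TPM, and so was ISX, at 6.67 TPM, and LGALS4 was highest in SC-β organoids, at 7.30 TPM. Both sums were thus far lower in PH than in PP. At least 2-fold lower in PH were 3 of the 8 stomach genes, with a median log2 ratio of -0.06. Of the 9 intestinal genes 5 were, with a median of -1.19, beside 5.73% of all names.

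The 12 liver and yolk sac genes summed to 1818 TPM in PGT, 209 TPM in PP, 49.1 TPM in PH and 1535 TPM in SC-β organoids. In the last all 12 were at 1 TPM or more, beside 50.1% of all names. TTR, for transthyretin, which islet cells also make, accounted for 1229 TPM of the organoid sum, and APOA1, APOA2 and APOB, for apolipoproteins, were highest in PGT, at 252, 212 and 147 TPM. Lung markers were low in PP and SC-β organoids. The lung list of 8 summed to 3.16 TPM in PP and to 7.996 TPM at the last stage, with NKX2-1 at 2.68, NAPSA at 1.63 and SFTA3 at 1.57 TPM in the latter, and its one abundant gene, SCGB3A2, was highest in hESCs, at 65.3 TPM. The part of these cell types in the levels of SPINK1, CFTR and MUC1 was not tested.

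The label of the last stage as beta cells was read against 11 islet genes. All 11 were at 1 TPM or more in SC-β organoids, beside 50.1% of all names. Their sum there was 4211 TPM, against 334 TPM in PP and 231 TPM in PH. In the organoids GCG was above INS, CHGA, for the granule protein chromogranin A, was at 805 TPM and SST, for somatostatin, at 203 TPM.

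**Figure D4:**
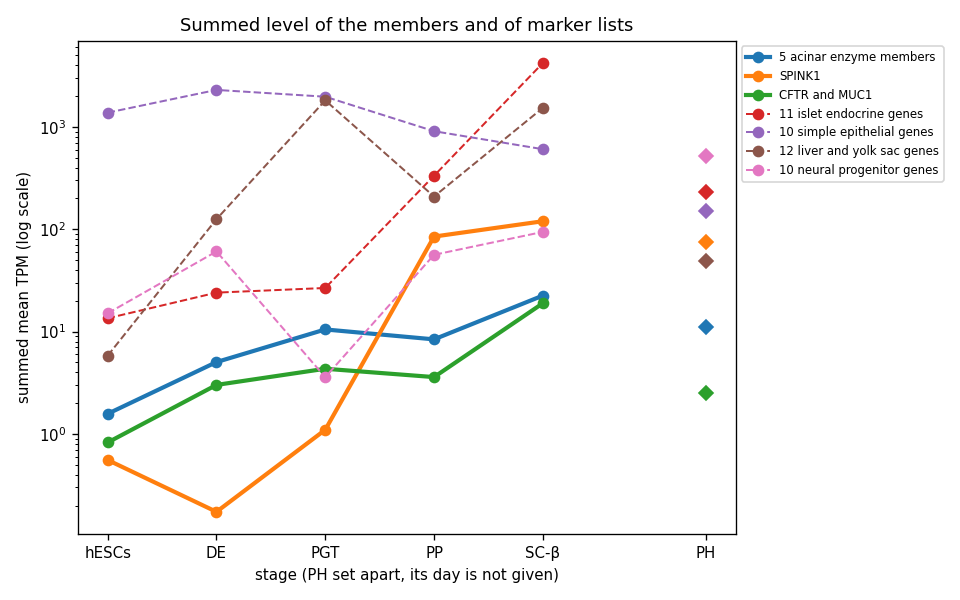
Points give the sum of the authors' mean TPM, on a log axis, for the 5 acinar enzyme genes, SPINK1, CFTR with MUC1, and lists of islet, simple epithelial, liver and yolk sac, and neural progenitor genes, with lines joining the stages of known day and PH set apart. SPINK1 stands at 75.6 TPM in PH, close to its 84.9 TPM in PP, while the epithelial sum is 152 TPM in PH against 909 TPM in PP.

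The genes with the most similar course were sought among 14458 other protein-coding genes that reached 1 TPM, by Pearson's r of log2(TPM + 1) over the 6 stage means, which share one culture system and the same TPM scaling. For SPINK1 they were ZEB2, KRT5 and NEDD9, each with r of 0.996. ZEB2 was also close in level, at 65.3 TPM in PP, 77.4 TPM in PH and 102.7 TPM in SC-β organoids, and did not exceed 0.304 TPM before PP. For CPA1 they were OLIG3 (0.993), GPS2 (0.993) and KCNJ4 (0.990), and OLIG3, which is also on the neural progenitor list, was at 11.8 TPM in PP and 20.3 TPM in PH. For PRSS1 they were ZNF618 (0.993), CREBZF (0.991) and RFX2 (0.990), for CEL KCTD1 (0.993), RBMS3 (0.991) and ABCC2 (0.990), for CFTR KCNIP4 (0.998), USP6NL (0.986) and TNXB (0.986), and for MUC1 NDST4 (0.997), ABTB2 (0.995) and HIVEP3 (0.994). Of the 14458 genes, r was 0.95 or more for 22 with CPA1 (0.152%), 71 with CEL (0.491%), 86 with SPINK1 (0.595%), 118 with CFTR (0.816%), 163 with PRSS1 (1.13%) and 224 with MUC1 (1.55%). Among the members themselves, r was 0.882 for SPINK1 with CPA1, 0.875 for SPINK1 with CEL, 0.568 for SPINK1 with PRSS1 and 0.885 for PRSS1 with CFTR, and 0.0169 for CPA1 with CFTR. PRSS1 and PRSS2 had r of 0.947.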

How the data were processed

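For the RNA-seq, the submitters' processing notes name HISAT2 2.2.0, StringTie 2.1.6 and the build hg38, and the authors deposited TPM per gene. The deposited TPM values are means over the 2 replicates of a stage, so neither replicate spread nor read depth can be computed, and every stage is a value without a test. The annotation behind the table is not given in the sources used here. The methods name ribosomal RNA removal, and the labels also a stranded mRNA kit. The TPM total is shared with a few structural RNAs, which took 31.8% (DE) to 50.9% (PH) of it.

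The table holds 50451 entries under 49085 names, and entries with the same name were summed. Each member has a single entry. Log2 ratios were taken after adding 1 TPM, and 2-fold on that scale was the limit for counts. No log2 ratio of a single gene is given against a stage listed at 0, though counts and medians over lists include such genes with the added 1 TPM. Of each list the 4 genes with the highest level in any stage were named, with the copies of members and the 3 most similar genes of each member at 1 TPM or more. SOX9 was named as a ductal marker, and other genes are marked where named. Some genes of the lists are counted but not reported here by name. Members and lists were chosen with earlier results of these data known. Gene positions were read from GENCODE version 44 (GRCh38, which is hg38). Shared sequence was measured as exact 50-base windows (the length of a read per the methods) of the canonical transcript found in transcripts of other genes. The other assays of the 148 samples are not analysed here. The counting and scaling were tested on simulated data, in which only genes well above 1 TPM in hESCs were changed. That test does not cover counts for genes below 1 TPM in hESCs, as all members used were. Python 3.11.15, numpy 2.4.6, pandas 2.3.3 and matplotlib 3.10.9 were used.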

Additional observations from a re-analysis of the deposited data

How the results depend on the processing

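The counts of the 8 genes depended on the pseudocount and the reference, and SPINK1 was at least 2-fold above hESCs in PP, PH and SC-β organoids under each alternative that kept hESCs as the reference and 2-fold as the limit (log2 5.62 to 7.51). With a pseudocount of 0.1 TPM, 8 genes in place of 4 were at least 2-fold above hESCs in PP, 8 in place of 3 in PH and, for SC-β organoids, 7 in place of 4, and 1 in place of 0 was below in DE. Against the preceding stage, 0 were above in PGT, 2 in PP and 0 in PH. For PH, whose place in the order is not given, PP was taken as the preceding stage. With a 4-fold limit, 0 were above in DE, 1 in PGT and 1 in PP. Median-ratio rescaling, with log2 scale factors over hESCs from 0.03 (PH) to 0.52 (SC-β organoids), moved PRSS1 in SC-β organoids from 3.58 to 3.23 and SPINK1 in PH from 5.62 to 5.76, and left 1 in place of 2 above in DE. Without structural and mitochondrial RNAs 5 in place of 3 were above in PH. In hESCs, 4 genes in place of 0 passed a limit of 0.5 TPM, 1 passed 1 TPM after median-ratio rescaling and 2 without structural and mitochondrial RNAs. The other 77 of 92 counts stayed within 1.5 times. They include counts below hESCs, which the added 1 TPM held at 0 on the deposited values. Of 166 log2 ratios of single genes, 114 stayed on their side of 2-fold and within 0.5 of the reported value. Another 3, at least 2-fold above hESCs, were negative with the preceding stage as reference: PRSS1 in PP (-0.92), SPINK1 in PH (-0.17) and CFTR in PP (-0.51). These 3 compare another pair of stages and leave the ratios to hESCs as they were. With hESCs as the reference, CEL in DE, at 0.01, also changed sign, to -0.22 after rescaling and -0.08 without structural and mitochondrial RNAs, and so did CELA3A in DE after rescaling, where both values were within 0.01 of 0. The cause was not tested beyond what each alternative changes. No paired analysis was possible because each deposited column averages its replicates, and for the same reason no replicate could be left out. Levels below 1 TPM have no known precision.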
